A study of Mus musculus with 9 samples.

Results

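Collagens, the enzymes that crosslink and cut them, and the inhibitors of those enzymes were followed in mouse liver on Clariom S arrays, where short probes on a chip take up labelled RNA and the light of a probe set stands for the gene's RNA level. The members were the genes whose symbol in the platform annotation is that of a collagen chain (Col, a number, a and a number), a tissue inhibitor of metalloproteinases (Timp), a matrix metalloproteinase (Mmp, without Mmp12), a lysyl oxidase (Lox) or an ADAMTS protease (Adamts and a number). The rule used names and no measured value. It found 89 genes, each with 1 probe set, among 22206 probe sets tested, of which 19572 carry 1 gene symbol. Among them Loxhd1, a gene of the inner ear, matched by name only and is no lysyl oxidase, which leaves 88 matrix genes.

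The non-tumor liver of 9 male C57BL/6 mice was sampled at 40 weeks of age, after a high-fat diet from week 6. The HNK group held 3 MUP-uPA mice injected with honokiol (HNK), a compound of magnolia trees, from week 32 on, in 3 doses of 10 mg/kg a week. The MUP group held 3 MUP-uPA mice, and the WT group 3 wild-type littermates, both with the control treatment. MUP-uPA mice carry urokinase-type plasminogen activator (uPA, the product of Plau) behind the promoter of a major urinary protein gene, which is active in hepatocytes. All values are log2 intensities, and an effect is a difference of group means on that scale, called at an adjusted p under 0.05 from limma over all probe sets. The arrays had medians of 5.52 to 5.62, while 5222 negative control rows, which match no transcript, had medians of 4.91 to 5.10. All 9 arrays had strong hepatocyte markers such as Alb (19.75 to 19.93). The arrays of MUP 2 and HNK 3 stood apart: the median of 18 skeletal muscle genes was 12.36 and 12.15 there, against 4.14 to 4.68 on the other 7 arrays. Values without them are given beside the results that they moved most.

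Collagens are the main structural proteins of the matrix. Their chains wind into triple helices inside the cell and assemble into fibrils or networks outside it. Lysyl oxidases crosslink the fibrils, matrix metalloproteinases (MMPs) and ADAMTS proteases cut matrix proteins, and TIMPs block the MMPs. In liver injury hepatic stellate cells are the best known source of fibrillar collagen, and scar forms where deposition outpaces removal. In bulk liver RNA, fewer cells of a type and less RNA per cell cannot be told apart.

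Of the 89 genes, 0 were called higher (2 at an unadjusted limma p under 0.05) and 2 were called lower in MUP than in WT livers, Mmp14 and Adamts1. Over all probe sets 1.44% were called higher and 2.13% lower in this comparison. In HNK against MUP 0 members were called in either direction, beside 0.00450% of all probe sets called higher and 0% lower, and 1 member had an unadjusted limma p under 0.05 and a higher mean and 2 had a lower mean. In HNK against WT 0 were called higher (3 at an unadjusted limma p under 0.05) and 1 lower, Adamts1, beside 0.964% and 1.33% of all probe sets. Of all 22206 probe sets, 1736 had such an unadjusted p and a higher mean in MUP against WT, 463 in HNK against MUP and 1349 in HNK against WT. With a lower mean these were 2115, 505 and 1782, against 4, 2 and 3 members. Counted without a threshold, 57 members had a higher and 32 a lower mean in MUP than in WT livers, beside 11204 and 11002 of all probe sets. Many of these members are at the level of the negative controls, as given below. The median difference of the members was 0.13 for MUP against WT, -0.02 for HNK against MUP and 0.04 for HNK against WT, beside 0.00, -0.01 and -0.01 over all probe sets. In MUP against WT the 3 arrays of each group did not overlap for 11 members in the higher direction (12.4%, against 11% of all probe sets) and 5 in the lower direction (5.62%, against 12.5%).

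Most of these genes were dim in whole liver. The plot of levels by role shows 40 of the 89 genes no brighter than the negative controls' median on all 9 arrays. Among them were 13 of 20 MMPs, 11 of 18 ADAMTS proteases and 3 of 11 fibril-forming collagens, and they include Mmp8, Mmp9, Lox, Loxl1, Col5a1 and Adamts5. Their differences were counted and are not described. A further 45 genes lay above that median on at least 1 array and above the 95th percentile of the negative controls (8.24 to 8.61) on none. Of the 4 left, Col18a1 and Mmp19 exceeded that percentile on all 9 arrays. Col3a1 did so on 5 arrays and Timp2 on 2. Differences of dim genes are compressed towards 0 by the background in the signal.

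**Figure D1:**
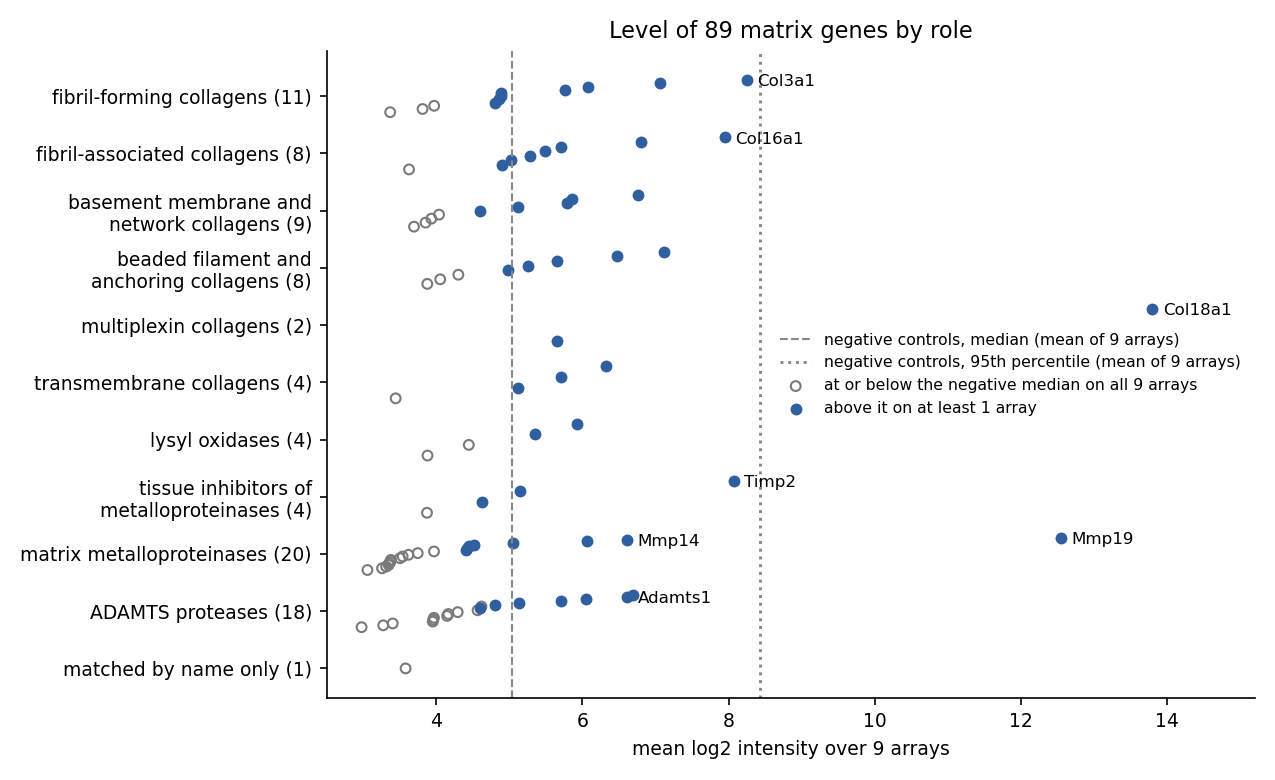
Mean log2 intensity over 9 arrays (horizontal axis) of each of the 89 genes, in rows by role with the number of genes. Open circles exceed the negative controls' median on none of 9 arrays (40 genes), the dashed and dotted lines mark that median and the 95th percentile of the negative controls, and Col18a1 and Mmp19 stand alone to the right.

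Among the MMPs, Mmp14 was lower in the MUP-uPA livers. Mmp14 encodes a membrane-anchored protease that cuts fibrillar collagen and activates the proenzyme of Mmp2. It read 6.40, 6.02 and 6.58 in HNK livers, 6.51, 5.63 and 5.94 in MUP livers, and 7.45, 7.65 and 7.28 in WT livers. Every MUP-uPA array lay below every WT array. The difference was -1.44 for MUP against WT (95% interval -2.02 to -0.85, 0.370 of the WT level, adjusted p = 0.0137 from limma) and -1.12 for HNK against WT (-1.71 to -0.54, adjusted p = 0.0530 from limma), which is not a call. HNK and MUP livers overlapped, with a difference of 0.31 (-0.28 to 0.90). The exact permutation test of Mmp14 in MUP against WT gave p = 0.1, the smallest that 3 arrays against 3 allow. Leaving out WT 1, WT 2 or MUP 3 ended the call (adjusted p = 0.0583, 0.0605 and 0.0533 from limma). Without MUP 2 and HNK 3 it stayed (-1.24, adjusted p = 0.0414 from limma).

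Among the ADAMTS proteases, Adamts1 was lower in both MUP-uPA groups. Adamts1 encodes a secreted protease that cuts the proteoglycans versican and aggrecan. It read 6.22, 5.73 and 6.34 in HNK livers, 6.28, 6.51 and 6.14 in MUP livers, and 7.68, 7.57 and 7.09 in WT livers. No MUP-uPA array reached the lowest WT array. The difference was -1.36 for HNK against WT (95% interval -1.90 to -0.81, adjusted p = 0.0184 from limma) and -1.14 for MUP against WT (-1.69 to -0.59, adjusted p = 0.0301 from limma). Between HNK and MUP livers it was -0.22 (-0.76 to 0.33), within the spread of the arrays. The MUP against WT call was lost without WT 1, WT 2, MUP 1 or MUP 3 (adjusted p = 0.128, 0.101, 0.0810 and 0.104 from limma) and the HNK against WT call without WT 1, WT 2 or HNK 2 (0.0891, 0.0742 and 0.0573). Both calls stayed without MUP 2 and HNK 3 (adjusted p = 0.0437 for MUP and 0.0284 for HNK against WT, from limma). The WT levels of Mmp14 and Adamts1 lay above the median and below the 95th percentile of the negative controls.

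**Figure D2:**
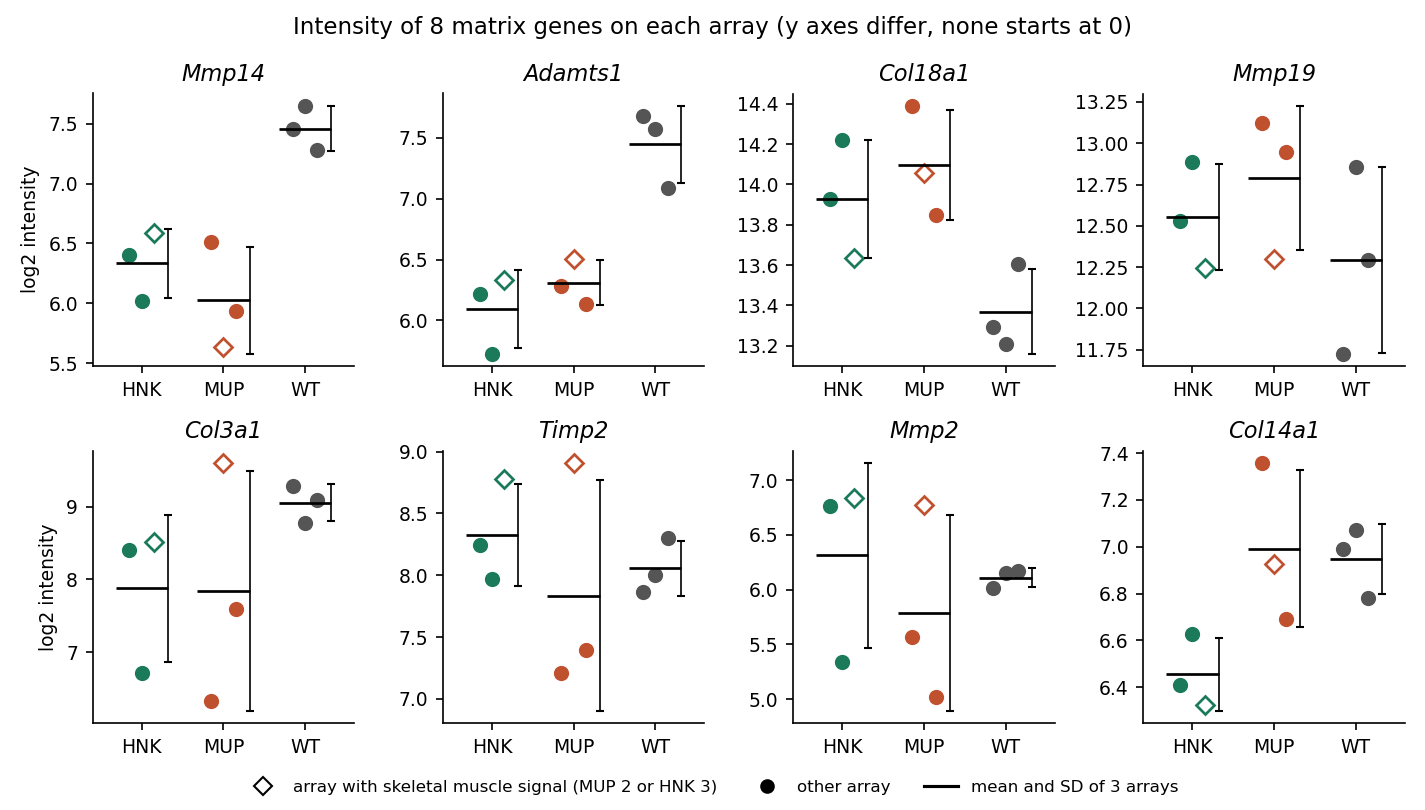
Log2 intensity of 8 matrix genes on each array, with HNK, MUP and WT from left to right. Each point is a liver, the bar is the mean and the whisker the SD of 3, and open diamonds are MUP 2 and HNK 3, which carry skeletal muscle signal. For Mmp14 and Adamts1 all 6 MUP-uPA arrays lie below the WT arrays, and for Col3a1, Timp2 and Mmp2 the open diamonds are the highest of their groups.

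Markers of some liver cell types moved in the same direction as Mmp14 and Adamts1, and those of others did not. Of 9 stellate cell markers 7 had a lower mean in MUP than in WT livers, and Colec11 (-1.66, adjusted p = 0.00706) and Ngfr (-1.56, adjusted p = 0.0228) were called by limma. With 1 array left out Colec11 stayed called, and Ngfr did not without WT 2, WT 3, MUP 1 or MUP 3. The summed linear intensity of the 9 was 1172 to 4181 in HNK, 1812 to 3541 in MUP and 2889 to 4630 in WT livers, where Des, a filament protein of stellate cells and also of muscle, read 11.02 on HNK 3, 10.73 on MUP 2 and 4.205 to 5.618 on the other arrays. Without Des the sums of the other 8 were 1123 to 2111 in HNK, 1793 to 1931 in MUP and 2862 to 4611 in WT livers, with no overlap between the MUP-uPA arrays and the WT arrays. All 9 macrophage markers had a lower mean in MUP than in WT livers, with sums of 5682 to 20460 in HNK, 11200 to 22820 in MUP and 30710 to 82410 in WT livers. Of 10 sinusoidal endothelial markers 9 had a lower mean, with sums of 5746 to 8349 in HNK, 6951 to 14280 in MUP and 18930 to 27160 in WT livers. Besides the 2 stellate markers, 1 macrophage and 1 endothelial marker were called lower in MUP against WT. In HNK against WT 1 stellate, 2 macrophage and 4 endothelial markers were called lower. In these comparisons 0 markers of the 3 lists were called higher, and the calls beside them were 2.13% and 1.33% of all probe sets lower. By the median of each list, MUP and WT arrays overlapped for endothelial markers (8.15 to 9.99 in MUP, 9.81 to 10.09 in WT) and macrophage markers (7.77 to 10.52 and 10.47 to 12.04). All 5 cholangiocyte, 6 neutrophil and 6 mesothelial markers had a higher mean in MUP than in WT livers. Of 10 activated fibroblast or myofibroblast markers 6 had a lower and 4 a higher mean. The part of any of these shifts in the results for Mmp14 and Adamts1 was not tested.

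The promoters of the genes that were called lower, and of the brightest collagen, are shown as the 250 bases before the start site in RefSeq on GRCm38.p6. Capitals mark matches to the GC box (GGGCGG) or the TATA box (TATAAA) on either strand, and none of the 4 windows holds the AP-1 site TGANTCA, the cAMP response element TGACGTCA or the E-box CACGTG. For Col18a1 the table lists both an upstream and a downstream start, which the probe set does not separate. The windows are chr16:85803114-85803363 on the minus strand for Adamts1, chr14:54431348-54431597 on the plus strand for Mmp14, and chr10:77166531-77166780 and chr10:77113706-77113955 on the minus strand for Col18a1, each written 5′ to 3′ along its gene.
Adamts1: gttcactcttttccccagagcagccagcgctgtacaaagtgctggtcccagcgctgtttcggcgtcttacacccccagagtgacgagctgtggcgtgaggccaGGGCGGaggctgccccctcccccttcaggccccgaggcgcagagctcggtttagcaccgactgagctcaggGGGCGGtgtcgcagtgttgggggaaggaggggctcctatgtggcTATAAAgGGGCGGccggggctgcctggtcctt
Mmp14: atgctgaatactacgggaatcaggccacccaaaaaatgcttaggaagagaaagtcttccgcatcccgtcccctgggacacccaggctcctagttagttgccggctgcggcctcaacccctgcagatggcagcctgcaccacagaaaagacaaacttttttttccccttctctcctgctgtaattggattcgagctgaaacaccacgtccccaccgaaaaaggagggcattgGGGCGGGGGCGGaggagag
Col18a1, upstream start: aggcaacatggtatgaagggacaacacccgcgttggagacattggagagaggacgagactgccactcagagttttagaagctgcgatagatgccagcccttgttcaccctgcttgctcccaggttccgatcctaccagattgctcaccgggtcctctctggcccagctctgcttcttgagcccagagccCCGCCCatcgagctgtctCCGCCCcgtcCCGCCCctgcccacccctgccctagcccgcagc
Col18a1, downstream start: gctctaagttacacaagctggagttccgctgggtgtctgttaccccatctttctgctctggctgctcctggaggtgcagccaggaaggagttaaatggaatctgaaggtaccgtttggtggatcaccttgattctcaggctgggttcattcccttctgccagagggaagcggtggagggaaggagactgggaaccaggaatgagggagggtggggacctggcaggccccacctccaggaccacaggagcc
The Adamts1 window holds 3 GC boxes and a TATA box 32 bases before the start. The Mmp14 window holds adjoining GC boxes 19 and 13 bases before the start and no TATA box. The upstream Col18a1 window holds 3 GC boxes and the downstream window none of the 5 motifs. A GC box is found in 32.7% of 32851 such windows and a TATA box in 12.4%, against 36 (52.9%) and 14 (20.6%) of the 68 windows found for 63 members. The median share of G and C was 59.4% in the members' windows and 52.4% in all windows, and its part in these shares was not tested. The AP-1 site is in 6.75% of all windows and in 8 of the 68, which are those of Col6a1, Mmp1a, Mmp1b, Mmp3, Mmp7, Mmp10, Mmp13 and Mmp20, so that 7 of the 8 are MMPs of chromosome 9. A match to these letters is no evidence of binding.

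Mmp19 was the bright member of its family. It encodes a secreted protease with a broad range of matrix substrates. It read 12.53, 12.88 and 12.24 in HNK livers, 13.12, 12.30 and 12.95 in MUP livers, and 11.73, 12.85 and 12.30 in WT livers. The groups overlapped, and MUP against WT differed by 0.50 (95% interval -0.16 to 1.16, adjusted p = 0.446 from limma).

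The gelatinase gene Mmp2 read 6.76, 5.34 and 6.83 in HNK livers, 5.57, 6.77 and 5.02 in MUP livers, and 6.01, 6.15 and 6.17 in WT livers. The SD was 0.843 in HNK, 0.897 in MUP and 0.085 in WT livers, and the groups overlapped in every comparison. The uncalled difference without MUP 2 and HNK 3 was 0.757 for HNK against MUP (0.524 with all arrays), -0.814 for MUP against WT (-0.321) and -0.057 for HNK against WT (0.203). Mmp13, the main collagenase of rodents, read 4.77, 3.67 and 3.77 in HNK, 4.56, 3.91 and 4.15 in MUP and 5.82, 3.96 and 5.43 in WT livers. It exceeded the negative median on WT 1 and WT 3 and on no other array. Mmp7, an epithelial matrilysin, exceeded it on HNK 1 alone, at 5.65. Mmp12, the macrophage elastase kept out of the members, was called lower in both MUP-uPA groups. It read 9.38, 5.51 and 8.37 in HNK, 7.72, 5.36 and 8.91 in MUP and 12.70, 10.97 and 12.52 in WT livers (MUP against WT -4.73, adjusted p = 0.0226 from limma). Without MUP 2 and HNK 3 this difference was -3.74 and no longer called (adjusted p = 0.0519 from limma). Leaving out WT 1, WT 3, MUP 1 or MUP 2 alone also ended the call (adjusted p up to 0.104 from limma). In HNK against WT the difference was -4.31 (adjusted p = 0.0429 from limma), a call lost with any of 6 arrays left out. It stayed called without MUP 2 and HNK 3 (-4.61, adjusted p = 0.0294 from limma).

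Of the other ADAMTS genes, Adamts7 was flat at 6.82, 6.62 and 6.55 in HNK, 6.74, 7.24 and 6.20 in MUP and 6.75, 6.59 and 6.74 in WT livers. MUP differed from WT by 0.04 (-0.54 to 0.61). Adamts13, which cuts von Willebrand factor and is made by stellate cells, was above the negative median on 1 array only. Adamts6 exceeded it on HNK 3 alone, at 5.60.

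None of the 4 TIMP genes was called. Timp1, an inhibitor known to rise in fibrotic liver, read 4.75, 4.59 and 4.53 in HNK livers, 4.46, 3.92 and 4.34 in MUP livers, and 5.01, 4.48 and 5.50 in WT livers. It was at or below the negative median on 7 of 9 arrays, with all MUP arrays below all WT arrays (-0.76, 95% interval -1.34 to -0.17, adjusted p = 0.166 from limma). The HNK arrays lay above the MUP arrays by 0.38 (-0.21 to 0.97, adjusted p = 0.998 from limma). Timp2 read 8.24, 7.97 and 8.78 in HNK livers, 7.21, 8.91 and 7.39 in MUP livers, and 7.87, 8.0 and 8.30 in WT livers. Its highest values were those of MUP 2 and HNK 3. Without these arrays the uncalled difference was 0.805 for HNK against MUP (0.494 with all arrays), -0.757 for MUP against WT (-0.221) and 0.048 for HNK against WT (0.273). Timp3, which binds to the matrix, read 5.27, 4.63 and 5.73 in HNK, 5.56, 5.41 and 5.09 in MUP and 4.57, 5.32 and 4.72 in WT livers, with overlap in every comparison.

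No collagen was called in any comparison. Among the fibril-forming collagens, the chains of type I collagen were dim and close to even. Col1a1 read 6.19, 5.87 and 6.06 in HNK livers, 5.74, 6.35 and 6.04 in MUP livers, and 6.14, 6.14 and 6.19 in WT livers. The MUP against WT difference was -0.11 (95% interval -0.60 to 0.38) and that of HNK against MUP -0.00 (-0.49 to 0.48). Col1a2 read 5.96, 4.96 and 5.85 in HNK, 5.78, 6.26 and 5.53 in MUP and 5.98, 5.46 and 6.09 in WT livers (MUP against WT 0.02, -0.67 to 0.70). Col5a2, a chain of the type V collagen of fibril cores, was above the negative median on 1 array only.

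Col3a1, the chain of type III collagen, was the brightest fibrillar collagen and the most uneven. It read 8.41, 6.71 and 8.51 in HNK livers, 6.33, 9.60 and 7.59 in MUP livers, and 9.28, 8.78 and 9.09 in WT livers. HNK lay below WT on all arrays, and MUP 2 lay above every WT array while MUP 1 and MUP 3 lay below. The difference was -1.21 for MUP against WT (95% interval -2.69 to 0.27, adjusted p = 0.402 from limma) and -1.18 for HNK against WT (-2.66 to 0.31, adjusted p = 0.497 from limma). Without MUP 2 and HNK 3 the MUP against WT difference was -2.09 and was called (adjusted p = 0.0442 from limma), and that of HNK against WT was -1.49 (adjusted p = 0.158 from limma). With only 1 array left out, the MUP against WT difference ran from -2.09 to -0.458 and was never called (lowest adjusted p = 0.0608 from limma). For HNK against MUP the difference was 0.04 with all arrays and 0.60 without MUP 2 and HNK 3, and neither was called.

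The fibril-associated collagens sit on the surface of fibrils. All 8 measured had a higher mean in MUP than in WT livers and 7 of 8 a lower mean in HNK than in MUP livers, and none was called. Over all 22206 probe sets 11204 had a higher mean in MUP than in WT livers and 11441 a lower mean in HNK than in MUP livers. Their median difference, that of the 8, was 0.33 for MUP against WT and -0.25 for HNK against MUP. Both use the same MUP arrays with opposite sign, so that high MUP values alone would give this pattern. In HNK against WT 5 of the 8 had a higher and 3 a lower mean, with a median of 0.06. Single arrays moved these medians. HNK 2 was the highest HNK array for 6 of the 8, MUP 1 the highest MUP array for 6 and WT 2 the highest WT array for 7. Without MUP 1 the MUP against WT median was 0.15, with 6 of 8 higher in MUP, and it was 0.22 to 0.40 with any other array left out. The HNK against MUP median was -0.13 without HNK 3, -0.14 without MUP 1, -0.38 without HNK 2 and -0.41 without MUP 2. The median of the external spike-in rows was 6.14 on MUP 1, against 4.08 to 4.34 on the others, and its part in the result was not tested. Col14a1, which binds fibrils and regulates their diameter, read 6.41, 6.63 and 6.32 in HNK livers, 7.36, 6.93 and 6.69 in MUP livers, and 6.99, 7.07 and 6.78 in WT livers. The HNK arrays lay below all MUP and all WT arrays, with a difference of -0.54 from MUP (95% interval -1.04 to -0.03, adjusted p = 0.998 from limma). Col9a3, a chain of type IX collagen, read 5.46, 5.02 and 5.35 in HNK, 6.11, 5.58 and 5.68 in MUP and 5.38, 5.53 and 5.32 in WT livers, with HNK below MUP by 0.52 on average (-1.01 to -0.02, adjusted p = 0.998 from limma).

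The multiplexins held the brightest member. Col18a1 encodes a basement membrane collagen whose C-terminal fragment is endostatin, and hepatocytes are a known source of it in liver. It read 13.92, 14.22 and 13.63 in HNK livers, 14.39, 14.06 and 13.85 in MUP livers, and 13.29, 13.21 and 13.60 in WT livers. All 6 MUP-uPA arrays lay above the WT arrays, HNK 3 by a narrow margin over WT 3. The difference was 0.73 for MUP against WT (95% interval 0.27 to 1.18, adjusted p = 0.0851 from limma) and 0.56 for HNK against WT (0.10 to 1.01, adjusted p = 0.231 from limma), and neither is a call. HNK and MUP overlapped (-0.17, -0.63 to 0.28). Its relative Col15a1 read 5.88, 5.74 and 5.30 in HNK, 6.24, 5.31 and 6.10 in MUP and 5.58, 5.28 and 5.50 in WT livers, with overlap in every comparison.

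In the basement membrane group, Col4a1 and Col4a2 form the common network of type IV collagen. Col4a1 read 6.17, 5.82 and 5.80 in HNK, 5.84, 5.76 and 5.58 in MUP and 6.11, 5.91 and 5.74 in WT livers, with overlap throughout. Col4a2 read 5.67, 6.02 and 5.92 in HNK, 5.91, 5.89 and 6.12 in MUP and 5.34, 5.65 and 5.63 in WT livers. Both MUP-uPA groups lay above WT for Col4a2 (MUP against WT 0.43, -0.04 to 0.90, adjusted p = 0.331 from limma), and for Col4a1 the same difference was -0.19 (-0.67 to 0.28).

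Type VI collagen forms beaded filaments around cells. Col6a3 was its brightest chain, at 7.55, 6.94 and 6.78 in HNK, 7.20, 7.42 and 7.26 in MUP and 7.27, 6.69 and 6.92 in WT livers. Col6a1 read 5.57, 5.84 and 5.71 in HNK, 5.28, 6.09 and 5.42 in MUP and 5.42, 5.66 and 5.82 in WT livers. Col6a2 was dim except on HNK 3 (6.09), MUP 2 (5.74) and HNK 2 (5.14), with 4.42 to 4.84 on the other arrays. Its mean was higher by 0.73 in HNK than in WT livers (-0.08 to 1.55, adjusted p = 0.420 from limma), and by 0.36 without MUP 2 and HNK 3.

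Of the lysyl oxidases 4 were measured, and Lox and Loxl1 lay at the level of the negative controls. Loxl3 read 6.00, 5.78 and 6.56 in HNK livers, 5.63, 5.98 and 5.17 in MUP livers, and 5.92, 6.44 and 5.82 in WT livers, and HNK exceeded MUP by 0.52 with overlap (-0.12 to 1.16). Loxl4 varied between 4.95 and 5.53 over the 9 arrays. The transmembrane collagens Col13a1, Col23a1 and Col25a1 ranged from 4.58 to 6.93 with overlap between the groups.

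**Figure D3:**
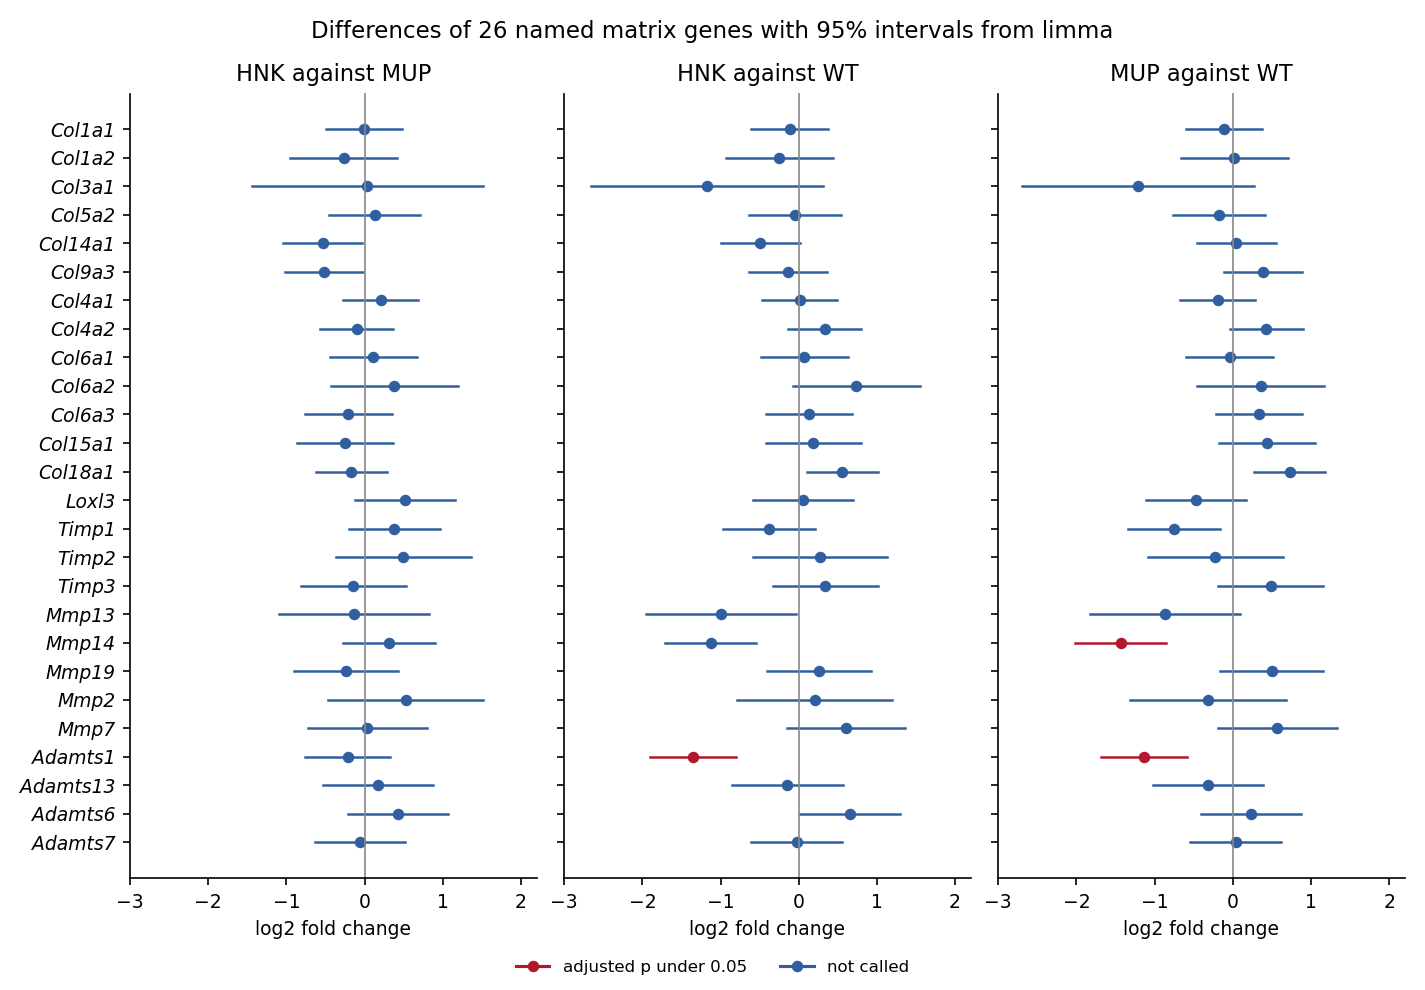
Log2 fold change with its 95% interval from limma (horizontal axis) of 26 named genes, ordered by role, for HNK against MUP, HNK against WT and MUP against WT. Red marks an adjusted p under 0.05, reached by Mmp14 and Adamts1 in MUP against WT and by Adamts1 in HNK against WT, and the widest interval is that of Col3a1.

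Honokiol-treated and control MUP-uPA livers were not told apart by any member. Of the 89 genes, 43 had a higher and 46 a lower mean in HNK than in MUP livers, beside 10765 and 11441 of all probe sets. The differences of the members ran from -0.54 (Col14a1) to 0.52 (Mmp2). Timp2 and Mmp2 differed by 0.805 and 0.757 without MUP 2 and HNK 3, and neither was called. The arrays did not overlap for 3 members in each direction (3.37%), beside 4.11% of all probe sets higher and 4.48% lower. The interval of the HNK against MUP difference ran to 0.90 for Mmp14 and to -0.76 for Adamts1. In simulated data of this comparison, with 22206 probe sets, 32.4% of changes of 1 and 97.1% of changes of 2 on the log2 scale were called. The simulation drew independent normal noise, changed randomly chosen probe sets and held no arrays with muscle signal. Many members are dim and some, such as Col3a1, are uneven, so these shares do not tell how often a change of a member would be called.

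Several stromal members were highest in their group on the arrays with skeletal muscle signal, by a wide margin on MUP 2 and a narrower one on HNK 3. On MUP 2 the array minus the mean of MUP 1 and MUP 3 was 2.64 for Col3a1, 1.61 for Timp2, 1.48 for Mmp2 and 1.15 for Col6a2. On HNK 3 the array minus the mean of HNK 1 and HNK 2 was 0.95 for Col3a1, 0.67 for Timp2, 0.78 for Mmp2 and 1.11 for Col6a2. For Col3a1 and Mmp2 HNK 3 was close to HNK 1 (8.51 against 8.41 and 6.83 against 6.76), which carries no muscle signal, and HNK 2 was the low array. Of the 89 members 13 were highest in their group on both arrays (14.6%), against 12.9% of all probe sets. Among the 49 above the negative median on at least 1 array, 11 were (22.4%). A gene can enter those 49 through its values on these 2 arrays, so that share has no matching background. Adamts1 was among them (0.30 on MUP 2 and 0.36 on HNK 3), and Mmp14, Col18a1 and Mmp19 were not. All 18 muscle genes had higher means in both MUP-uPA groups than in WT livers and none was called. Their summed linear intensity was 229300 on HNK 3, 294300 on MUP 2 and 446.5 to 782.8 on the other arrays, and Acta1, the actin of skeletal muscle, read 14.82 on HNK 3, 15.03 on MUP 2 and 5.14 to 5.80 on the others. Mesothelial markers were also higher on these arrays (medians of 5.93 on HNK 3 and 6.08 on MUP 2, against 4.49 to 5.38). The part of either signal in the values of Col3a1, Timp2, Mmp2 and Col6a2 was not tested.

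**Figure D4:**
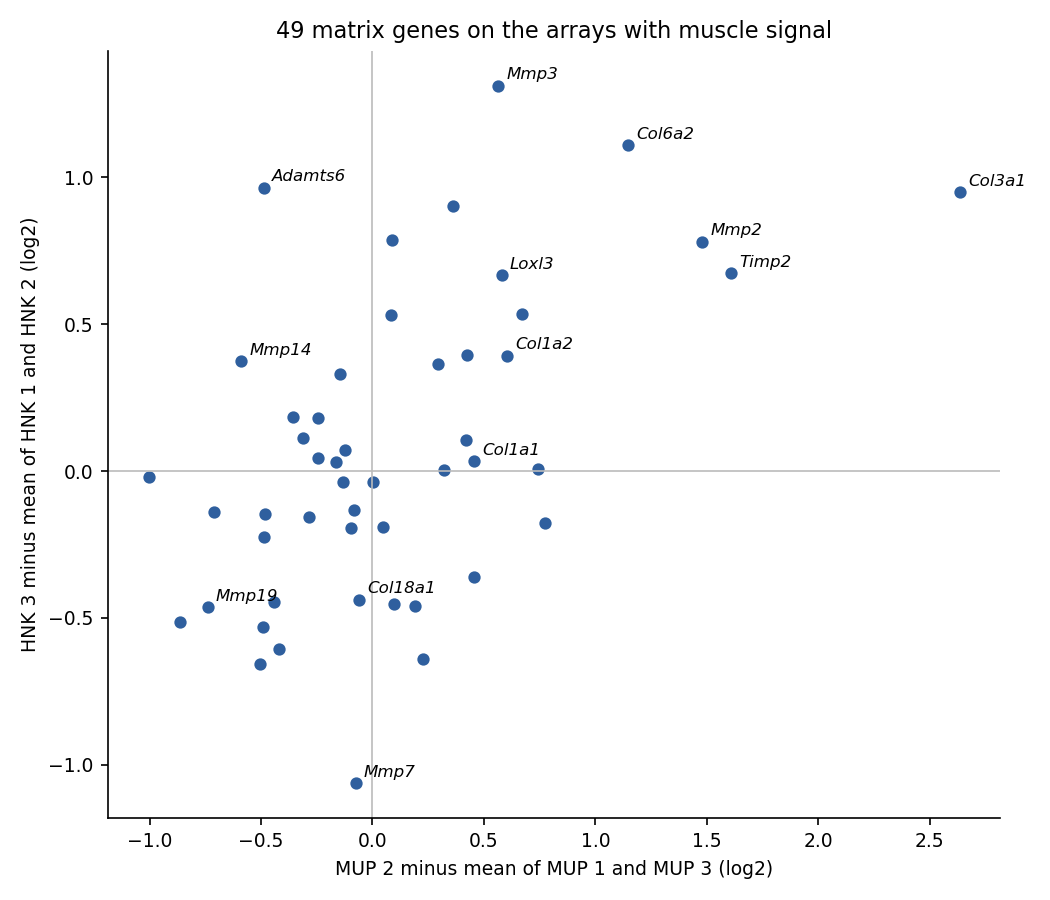
Differences in log2 intensity of the 49 members above the negative median on at least 1 array, for MUP 2 minus the mean of MUP 1 and MUP 3 (horizontal axis) and HNK 3 minus the mean of HNK 1 and HNK 2 (vertical axis). Each point is a gene, and Col3a1, Timp2, Mmp2 and Col6a2 lie far to the upper right.

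Genes around the collagens showed single calls. Of 20 collagen synthesis and processing genes 1 was called lower in MUP than in WT livers, Bmp1, the procollagen C-proteinase (7.57, 8.61 and 8.49 in MUP, against 9.22, 9.25 and 9.63 in WT, a difference of -1.15, adjusted p = 0.0422 from limma). In HNK against WT 1 of the 20 was called lower, Pcolce2, which enhances that protease (-1.51, adjusted p = 0.0123 from limma). Both genes also had a lower mean in the other comparison with WT and were not called there. Bmp1 differed by -1.165 in HNK against WT (adjusted p = 0.0509 from limma) and Pcolce2 by -0.92 in MUP against WT (adjusted p = 0.0718 from limma). Serpinh1, the collagen chaperone, was lower by 0.78 on average in MUP than in WT livers and was not called (adjusted p = 0.185 from limma). Pcolce2 lay at or below the negative median on 6 of 9 arrays, as did Tnc and Nid2 below. Of 28 other matrix proteins 1 was called higher and 3 lower in MUP against WT. Fn1, fibronectin, which hepatocytes make as a plasma protein, was higher at 16.14, 15.64 and 16.23 in MUP, against 14.74, 14.94 and 15.05 in WT livers (1.09, adjusted p = 0.00917 from limma). The lower ones were Sparc, a collagen-binding protein (-1.30, adjusted p = 0.0466), Tnc, tenascin C (-1.0, adjusted p = 0.0370), and Nid2, a basement membrane linker (-0.91, adjusted p = 0.0443), all from limma. In HNK against WT Fn1 was again higher, and Sparc, Tnc and Postn, periostin, were called lower. Of 21 genes of TGF-beta, PDGF and CCN signalling 0 were called in any comparison. Their means were higher in HNK than in MUP livers for 17 of the 21 (2 at an unadjusted limma p under 0.05), with a median difference of 0.19, and higher in MUP than in WT livers for 10. Ccn1, a matricellular protein, read 9.14, 9.53 and 9.04 in HNK, 7.30, 8.87 and 7.21 in MUP and 10.10, 9.99 and 8.57 in WT livers. All HNK arrays of Ccn1 lay above all MUP arrays (1.44, 95% interval 0.42 to 2.46, adjusted p = 0.998 from limma), and MUP and WT overlapped (-1.76, -2.78 to -0.74, adjusted p = 0.0640 from limma). Without MUP 2 and HNK 3 the MUP against WT difference of Ccn1 was called (-2.30, adjusted p = 0.0154 from limma), and it was also called with WT 3 or MUP 2 alone left out. Ccn2, the connective tissue growth factor, read 6.34, 6.36 and 6.29 in HNK, 5.66, 5.75 and 5.47 in MUP and 5.95, 7.65 and 6.57 in WT livers. Its MUP arrays lay below all others, with 0.70 for HNK against MUP (-0.06 to 1.47, adjusted p = 0.998 from limma) and -1.10 for MUP against WT (-1.86 to -0.33, adjusted p = 0.121 from limma). Tgfb1 read 9.81, 7.69 and 9.46 in HNK, 9.58, 9.24 and 8.81 in MUP and 9.85, 9.24 and 9.93 in WT livers. Of 17 ADAMTS-like proteins and regulators of matrix proteases 1 was called, Serpinf2, the plasmin inhibitor, higher in MUP (1.10, adjusted p = 0.0228) and in HNK (0.995, adjusted p = 0.0460) than in WT livers, from limma. Leaving out 1 array ended the calls named here in several cases. In MUP against WT the call of Fn1 was lost without WT 1 alone, that of Tnc with any of 5 arrays left out, Serpinf2 with any of 5, Sparc with any of 6, and Bmp1 and Nid2 with any of 7. Tnc was no longer called without MUP 2 and HNK 3 (-0.948, adjusted p = 0.101 from limma), whereas Bmp1, Fn1, Nid2, Serpinf2 and Sparc stayed called. In HNK against WT the call of Pcolce2 was lost without WT 1 or WT 3, that of Tnc with any of 3 arrays left out, Sparc and Postn with any of 5, Fn1 with any of 6 and Serpinf2 with any of 7, and all 6 were called without MUP 2 and HNK 3.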

How the data were processed

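RNA of 9 livers, 3 per group, was measured on Clariom S mouse arrays. Each array was taken as a mouse of its own. Groups follow the labels, and the regimen follows the study's methods. The table holds intensity values as deposited, after normalization by the authors, whose processing notes name RMA and Affymetrix Expression Console (version and genome build: not given in the sources used here). They are linear and reach 1000000. Their log2 was taken here and 6640 of 28846 rows, all controls, were left out. Symbols came from the platform annotation and were not compared with those of RefSeq. Col7a1, Col12a1, Loxl2 and Adamts2 are not analysed here. The 3 comparisons came from 1 model of all arrays in limma 3.58.1 (R 4.3.3, lmFit and trended eBayes, residual degrees of freedom 6, prior 5.83), two-sided, adjusted by Benjamini-Hochberg over 22206 probe sets. The fit was tested on simulated data. Genes named are the called members, the 4 largest differences each way per comparison, fixed genes of liver fibrosis, and Mmp12. A member at or below the negative controls' median on all arrays is named for no change. Others named beside these were chosen after their values were seen. Members and lists were chosen with earlier results of these data known. The alternatives were other subsets of arrays, a replicate block, array weights (statmod 1.5.0), a filter of the 40 percent dimmest probe sets, cyclic loess, median centring, no variance trend and the methods' t-test. Labels do not say whether arrays share a batch. The number of arrays limits the precision.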

Additional observations from a re-analysis of the deposited data

How the results depend on the processing

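Calls among the members were few and close to the threshold. With 1 array left out, the members called lower ranged from 0 to 2 in MUP against WT and from 0 to 2 in HNK against WT, and the medians of the members from 0.083 to 0.147, from -0.053 to 0.010 (HNK against MUP) and from 0.039 to 0.087. In HNK against WT 2 members (Mmp14 beside Adamts1) were called with the arrays of both groups alone, array weights, median centring, no variance trend or without the 40 percent dimmest probe sets. With the methods' t-test 0 were called in any comparison after Benjamini-Hochberg adjustment, and at an unadjusted p under 0.05 there were 7 higher and 4 lower in MUP against WT, 2 and 1 in HNK against MUP, and 7 and 3 in HNK against WT. Over the limma alternatives the adjusted p of Mmp14 in MUP against WT ranged from 0.00538 to 0.0605, that of Adamts1 from 0.0204 to 0.128, that of Col3a1 from 0.0442 to 0.799, and that of Adamts1 in HNK against WT from 0.0140 to 0.0891. Without the dimmest probe sets, which left 37 of the 89 members, the HNK against MUP median was -0.145. Leaving out MUP 2 and HNK 3 gave 3 calls lower in MUP against WT, with Col3a1. With a replicate block the calls were 2 lower in MUP against WT, 0 in HNK against MUP and 1 lower in HNK against WT, as without it. Arrays of the same number deviated together with correlations from -0.29 to 0.40, and arrays of different number with -0.46 to 0.54. The numbers were therefore not taken as pairs. The highest of these was that of MUP 2 with HNK 3. With 1 array left out, the sign of an uncalled difference changed for 10 of the 26 named members in MUP against WT, 9 in HNK against MUP and 10 in HNK against WT, and of no called one. Those that moved by more than the standard error of the difference were, in MUP against WT, Adamts13 (-0.539 to 0.039, without MUP 3), Col5a2 (-0.391 to 0.091, without WT 1) and Col6a2 (-0.028, without MUP 2, to 0.586), in HNK against MUP, Adamts13 (-0.185, without MUP 3, to 0.378), Col3a1 (-0.718, without MUP 1, to 0.914) and Mmp7 (-0.425, without HNK 1, to 0.389), and, in HNK against WT, Col5a2 (-0.263 to 0.219, without WT 1). Without MUP 2 and HNK 3 the sign turned for Col6a2 (-0.028), Adamts7 (-0.221) and Col1a2 (-0.184) in MUP against WT, for Adamts6 (-0.061), Adamts7 (0.254), Mmp14 (-0.011), Col1a1 (0.136) and Col6a3 (0.009) in HNK against MUP, and for Adamts7 (0.032), Loxl3 (-0.172) and Mmp2 (-0.057) in HNK against WT. The causes were not tested. Every member gene had 1 probe set, so that counting all probe sets changed nothing.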
